A study of Mus musculus with 4 samples.

Results

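Immunoglobulin gene segments were examined on 4 arrays of mouse hepatic macrophages. Members were the genes whose probe set carried exactly 1 symbol in the platform annotation, that symbol being a variable (V), joining (J) or constant segment of the heavy, kappa or lambda chain, with the brightest probe set kept per symbol. This gave 204 genes of 30142 in all, namely 113 heavy V segments, 86 kappa V segments, 1 kappa J segment (Igkj3) and the 4 heavy constant genes Ighm, Ighg1, Ighg2b and Ighe. No lambda segment had a probe set with a single symbol. Each member had 1 probe set, so the choice by brightness decided nothing. The heavy chain members lie on chromosome 12 and the kappa members on chromosome 6. The segments were taken up because Ighv8-13, Igkv4-57, Igkv13-87, Ighv3-1 and Ighv5-12-4 had stood out in earlier results of these arrays. Their counts and medians are therefore descriptions.

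All arrays came from liver macrophages of male C57BL/6J mice with a disease model labelled CRCLM, in a series on VEGFC and colorectal cancer spread in the liver. The treatment was an antibody to the chemokine CCL3, which draws monocytes and macrophages into tissue, and the controls had an isotype control antibody. Each antibody was represented by 2 arrays, of cell fractions named after F4/80 and CD11b with the letter m or p, which the labels do not explain. Each combination of antibody and fraction thus had 1 array and no replicate of its own. The labels do not say whether the arrays came from separate animals. In the paired fit, p-values and standard errors rest on how far the antibody difference disagreed between fractions, and on limma's prior from all tested genes. They measure no spread between animals or between replicate arrays, and the disagreement may be technical.

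Antibody genes are assembled in developing B cells, where V(D)J recombination joins 1 V segment to a J segment (and, in the heavy chain, a D segment between them). The joined exon is spliced to a constant region, whose gene sets the antibody class: Ighm for IgM, Ighg1 and Ighg2b for IgG subclasses, Ighe for IgE. Macrophages do not normally rearrange these loci, but bind finished antibodies through Fc receptors. V segments of a family are close copies, so a probe set named for 1 segment may read its relatives, and single segments are uncertain for that reason.

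The values are log2 signals made by the authors with RMA, a standard summary of Affymetrix probes. The median over 65956 transcript clusters lay between 6.18 and 6.21 on the 4 arrays, but the 99th percentile ran from 14.5 on the isotype control array of fraction p to 15.6 on the anti-CCL3 array of fraction m. The 5222 negative control probe sets, averaged over arrays, had a median of 6.34, an upper quartile of 7.84 and a 95th percentile of 11.6. The labelled cell type hardly stood out from them. The 12 macrophage markers had a median of 6.09, below that of the negative controls, and 0 of the 12 were above the controls' upper quartile. Among these markers, Cd68, a lysosomal protein, had the highest mean at 6.88 and Adgre1, which encodes F4/80, stood at 6.43. Of 8 Kupffer cell markers only Marco, a scavenger receptor, passed that quartile, at 8.40. B cell markers also had 0 of 17 above the quartile, with Cd79a, a signalling subunit of the B cell receptor, highest at 7.03. Their median of 6.27 was above those of the macrophage (6.09) and Kupffer cell (6.05) markers, and below that of the negative controls. The T cell and neutrophil lists had medians of 6.39 and 6.54. Cells of a type and RNA per cell cannot be told apart in such bulk samples.

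The segments lay inside the range of the negative controls. Their median level over 4 arrays was 6.76, which is the 58.5th percentile of the negative controls, against 6.16 for all genes. Above the upper quartile of the negative controls stood 43 of 204 segments, and 0 above their 95th percentile. Heavy and kappa V segments were alike, with medians of 6.72 and 6.81, and the 4 constant genes had a median of 6.38. The 137 T cell receptor segments, which are joined by the same recombination in T cells, had a median of 6.64. V segments listed as pseudogenes were at a median of 6.97 (10 segments) and those listed as functional at 6.76 (189 segments). Probe sets differ in how strongly they bind, so the order of these signals is no order of transcript abundance.

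**Figure D1:**
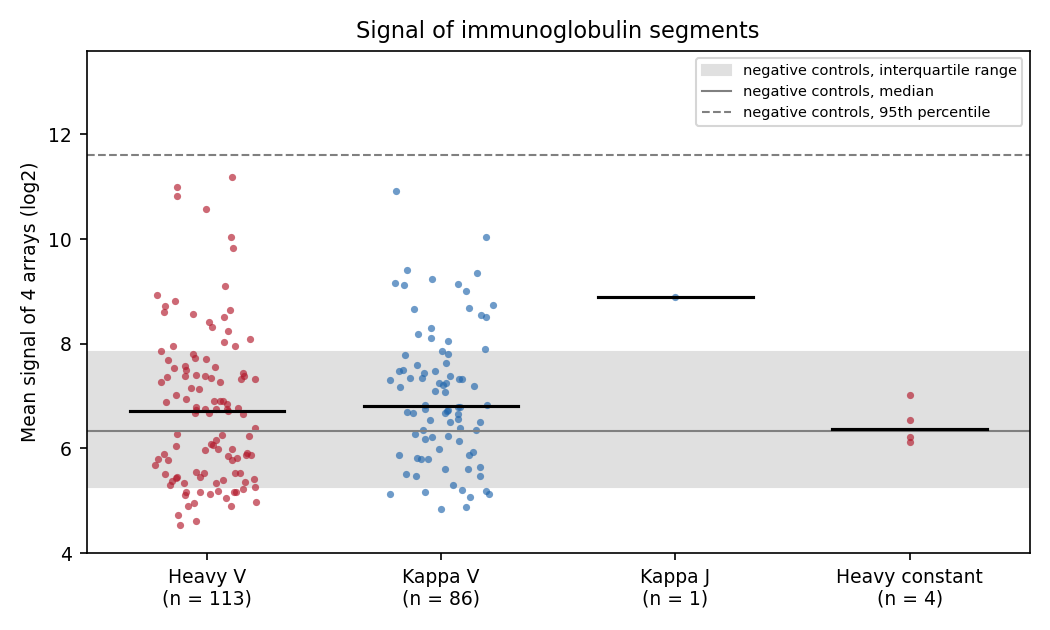
Mean log2 signal over 4 arrays of each segment (points), by kind, with the median of the kind (black lines). Medians of heavy V (6.72) and kappa V (6.81) lie inside the grey band, the interquartile range of the negative control probe sets, and no segment reaches their 95th percentile of 11.6 (dashed line).

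Level varied more by family than by chain. Among families of at least 5 members, the kappa family Igkv4 had the highest median level (8.51, 25 segments), followed by the heavy families Ighv2 (8.22, 8 segments) and Ighv5 (8.04, 9 segments). The kappa families Igkv6 (5.49) and Igkv5 (5.60) were dimmest, and the largest family, Ighv1 with 61 segments, had a median of 5.92. Position along the locus went with this. Counted from the constant region, the nearest, middle and farthest parts of the heavy V cluster, split by order into 3 parts of like size, had medians of 7.44, 5.91 and 6.06, and those of the kappa V cluster 6.40, 8.31 and 6.81. The middle kappa part holds most of the Igkv4 family, 23 of 25 segments.

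The brightest segments were Ighv10-1, at 11.32, 10.74, 11.49 and 11.20 in anti-CCL3 m, anti-CCL3 p, isotype control m and isotype control p, and Ighv2-5, at 11.79, 10.71, 10.67 and 10.83. All values in the text follow this order of arrays. Igkv4-70, Ighv12-3 and Ighv6-3 came next, all above 10 on each array. Ighv9-3 was dimmest, at 4.02, 4.67, 4.88 and 4.89, with Ighv1-12 and Ighv1-64 close to it.

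Segments also differed more between arrays than genes at large. The range over the 4 arrays exceeded 1 log2 unit in 44 of 204 segments (21.6%), against 10.1% of all genes. Among genes bright enough to be tested, meaning a mean of at least 6.16, the count was 31 of 131 segments (23.7%) against 16.5% of genes. Olfactory receptors, a large family of related genes, had a larger median range, 0.70, than the segments, 0.62, and 25.9% of them exceeded 1. The T cell receptor segments were close to the immunoglobulin segments, with 19.0% above 1 and a median range of 0.57. A wide range was thus not particular to immunoglobulin segments. The median range over all genes was 0.32.

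Among the constant genes, each had its highest value on the anti-CCL3 array of fraction m. Ighe stood at 6.90, 6.50, 6.62 and 6.12, Ighg1 at 7.24, 7.08, 6.76 and 7.02, and Ighm, the first class a B cell makes, at 6.39, 6.23, 6.19 and 6.09. Anti-CCL3 exceeded isotype control in both fractions for these 3 genes, by 0.33 ± 0.12 (SE) for Ighe, 0.27 ± 0.17 for Ighg1 and 0.17 ± 0.11 for Ighm. None passed the test (limma, adjusted p = 0.681, 0.814 and 0.832). The antibody groups of Ighe overlapped, while those of Ighg1 and Ighm did not. Ighe differed more by fraction, at -0.45 ± 0.12 (limma, adjusted p = 0.514). Both its arrays of fraction p were below both of fraction m, as in 24.2% of tested genes. The array with the highest signal is also the one with the brightest upper end, and 34.2% of all genes were highest there. Ighg2b was below the test level, at 6.23, 6.02, 6.07 and 6.16, and its groups overlapped.

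The only J segment with a probe set of its own, Igkj3, stood at 9.65, 8.05, 8.70 and 9.18. It was brightest on the anti-CCL3 array of fraction m and dimmest on that of fraction p, so neither comparison separated its groups. The fitted antibody difference was -0.09 ± 0.64.

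The first comparison asks how RNA differed after the anti-CCL3 antibody. None of the 131 tested segments passed it at an adjusted p below 0.05 (limma with Benjamini-Hochberg over 15071 genes, background 0.0%), and the smallest adjusted p was 0.356. At an unadjusted p below 0.05 stood 15 segments (11.5%, against 7.84% of tested genes), 4 of them higher after anti-CCL3 (3.05%, against 6.46%) and 11 lower (8.40%, against 1.38%). Of the 11 lower segments, 9 were kappa and 6 belonged to Igkv4. With quantile normalisation 1 segment was higher and 15 lower, against 3.76% and 2.81% of genes. With cyclic loess it was 1 higher and 16 lower, against 4.43% and 2.63%. The count of 11 became 6 without the anti-CCL3 array of fraction m (4.58%, against 1.13%). Without that of fraction p it was 3 (2.29%, against 0.803%), as it was without the isotype control array of fraction p (2.29%, against 1.3%). Leaving out the remaining isotype control array gave 9 (6.87%, against 1.89%), and without the fraction term it was 6 (4.58%, against 0.969%). Each fit with an array left out also drops the fraction term, so part of the fraction difference enters it. Its counts therefore come from a different model. The count of higher segments moved as well. Without the anti-CCL3 array of fraction p it was 9 (6.87%, against 5.08%), so that more segments were higher than lower. It was 1 without the anti-CCL3 array of fraction m (0.763%, against 2.42%) and 2 without the isotype control array of fraction m (1.53%, against 6.51%). With protein-coding genes and receptor segments alone it was 10 (7.63%, against 4.65%), beside 12 lower (9.16%, against 1.51%).

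The segments went both ways after anti-CCL3. Their median antibody difference was 0.00 (0.07 within m, 0.01 within p), and the median of all genes was 0.02. It was -0.00 for heavy V, 0.01 for kappa V and 0.22 for the 4 constant genes. In both fractions 70 segments were higher after anti-CCL3 (34.3%, against 30.0% of all genes) and 49 lower (24.0%, against 21.6%), and 85 differed in opposite directions. Groups did not overlap in 47 segments that were higher (23.0%, against 18.9%) and 35 that were lower (17.2%, against 13.0%). All of these shares were near the background. Differences beyond 0.5 in both fractions were found in 5 higher and 8 lower segments of 204. Of 30142 genes it was 837 (2.78%) and 181 (0.6%). Among tested segments it was 1 and 7 of 131, against 751 and 120 of 15071 genes. The correlation of the difference in fraction m with that in fraction p was 0.09 across the 204 segments and 0.19 across all genes, which share arrays and are not independent.

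**Figure D2:**
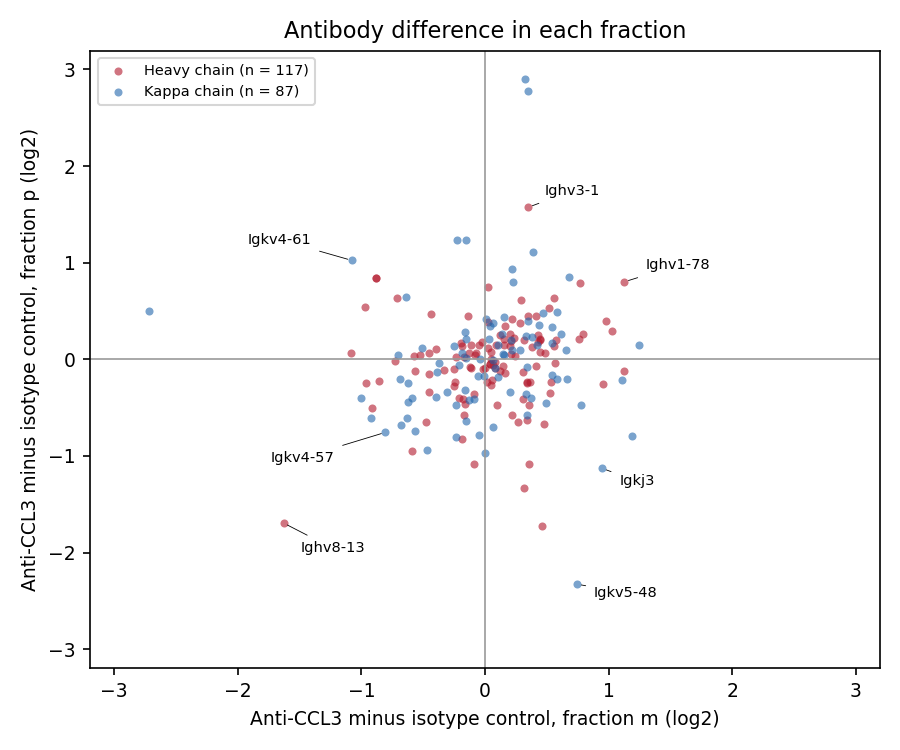
Difference in log2 signal, anti-CCL3 minus isotype control, in fraction m (horizontal) and fraction p (vertical) for each of 204 segments, coloured by chain, each axis comparing 1 array with 1 array. Ighv8-13 lies at -1.63 and -1.70, below 0 on both axes, and Igkv5-48 has opposite differences of 0.75 and -2.33.

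Ighv8-13, a heavy V segment, had the most negative difference of those lower in both fractions. Its signal was 8.01, 8.18, 9.64 and 9.87, so both anti-CCL3 arrays were below both isotype control arrays and the fractions were close. The difference was -1.66 ± 0.11 (adjusted p = 0.356). Standard errors near 0.11 are set by limma's prior and are no measured spread between arrays.

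Several kappa segments showed the same order of arrays. Igkv4-57 stood at 8.45, 8.99, 9.26 and 9.75, Igkv4-55 at 8.08, 8.36, 8.76 and 9.04, and Igkv4-62 at 8.16, 8.60, 8.79 and 9.20. In all 3, each array after anti-CCL3 was below both isotype control arrays, and fraction p was above m. The differences were -0.78 ± 0.11, -0.68 ± 0.11 and -0.62 ± 0.11 (adjusted p = 0.485, 0.485 and 0.504). Igkv6-14, of another kappa family, stood at 7.16, 6.27, 8.08 and 6.89. It was lower after anti-CCL3 within each fraction, while the groups overlapped. Ighv1-22, below the test level, stood at 5.24, 5.08, 5.84 and 6.03, with both anti-CCL3 arrays lowest.

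The segments named for higher signal after anti-CCL3 were dimmer, and 1 of the 6 was tested. That was Igkv15-103, at 7.82, 7.32, 7.13 and 6.47, with both anti-CCL3 arrays highest and a difference of 0.77 ± 0.12 (adjusted p = 0.485). Ighv1-78 stood at 6.37, 5.22, 5.24 and 4.42 and Ighv1-72 at 5.87, 6.65, 5.11 and 5.86. Both were higher after anti-CCL3 within each fraction. The groups of Ighv1-78 overlapped slightly, and those of Ighv1-72 were just apart. Ighv1-62-3, Ighv5-17 and Igkv2-95-2 had differences of 0.60, 0.53 and 0.53. Of these, Igkv2-95-2 and Ighv5-17 had both anti-CCL3 arrays above both isotype control arrays.

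By family, Igkv4 and Ighv8 leaned to lower signal after anti-CCL3 and Ighv5 to higher. In Igkv4, 12 of 25 segments were lower in both fractions (48.0%, against 21.6% of all genes) and 5 higher (20.0%, against 30.0%). The median difference was -0.20 (-0.23 in m, -0.20 in p). Other scalings gave 14, 13 and 14 lower segments and medians of -0.42, -0.22 and -0.37 (quantile, median centring, loess). Of 21 tested Igkv4 segments, 6 were lower at an unadjusted p below 0.05, against 1.38% of all tested genes. This became 2 when either anti-CCL3 array was left out, against 1.13% (fraction m left out) and 0.803% (fraction p left out) of genes. It became 4 without the isotype control array of fraction m, against 1.89%, and 0 without that of fraction p, against 1.3%. That last array was the highest of the 4 for 10 of the 25 segments, against 25.7% of all genes, and it has the dimmest upper end of the 4 arrays. The family was not uniform. Igkv4-53 stood at 6.54, 7.46, 6.20 and 4.69 and Igkv4-60 at 7.57, 8.80, 7.25 and 5.89, with anti-CCL3 arrays highest, whereas Igkv4-57-1 was at 5.71, 7.34, 8.43 and 6.84. These 3 segments were picked after their values were seen, since they range over more than 2 log2 units.

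In Ighv8, 7 of 8 segments were lower after anti-CCL3 in both fractions (87.5%, against 21.6% of all genes), under each scaling as well. The median difference was -0.43. Besides Ighv8-13, Ighv8-6 stood at 6.30, 6.34, 7.21 and 6.84, with both anti-CCL3 arrays lowest. Ighv8-4 was the exception, at 6.00, 5.86, 5.57 and 5.69. In Ighv5, 7 of 9 segments were higher in both fractions (77.8%, against 30.0% of all genes), with a median of 0.26. The count was 5, 6 and 5 and the median 0.09, 0.24 and 0.11 under the other scalings. In Ighv2, 4 of 8 were higher in both (50.0%, against 30.0%) and none lower, and its median of 0.32 was 0.03 after quantile normalisation. These families were singled out after their values were seen, and no family was tested.

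**Figure D3:**
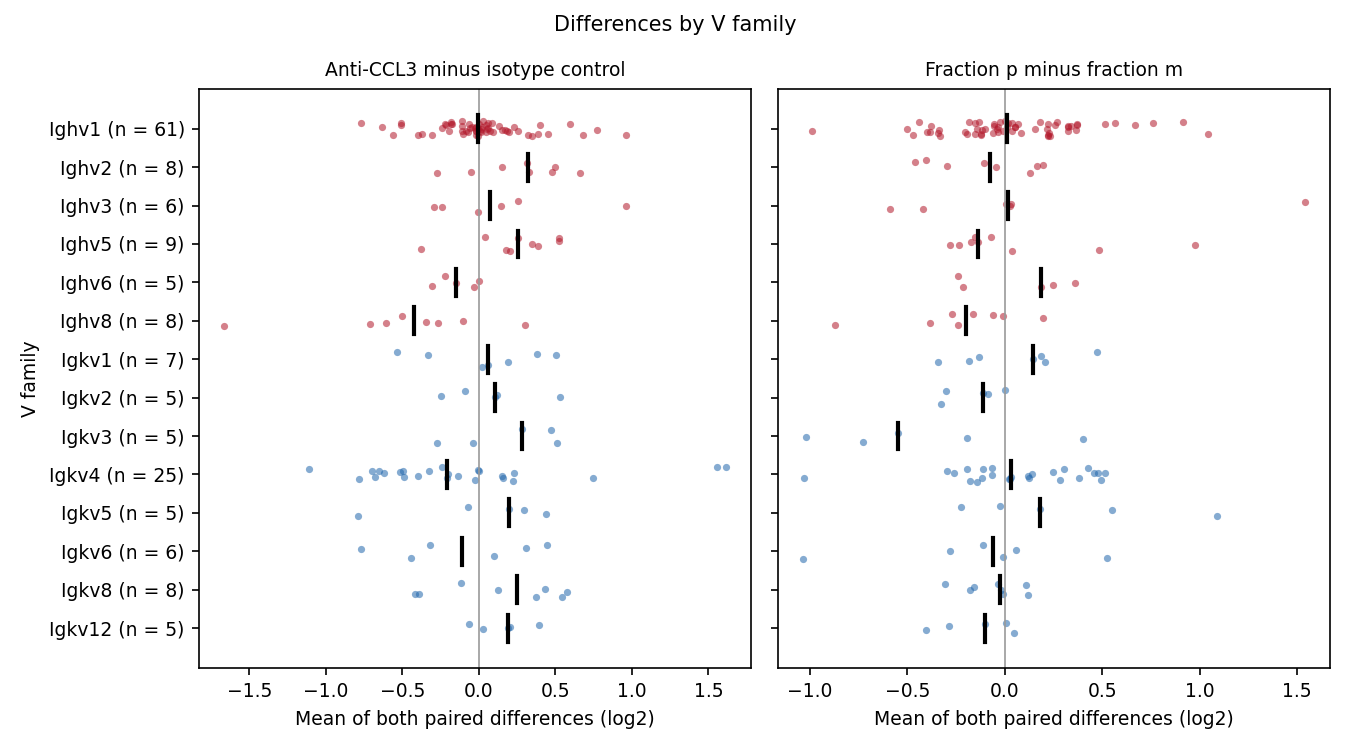
Difference in log2 signal of each segment (points) by V family, for families of at least 5 members, with the family median (black bars): anti-CCL3 minus isotype control on the left, fraction p minus fraction m on the right, each the mean of both paired differences. On the left Igkv4 (median -0.20) and Ighv8 (-0.43) lie below 0 and Ighv5 (0.26) above it, with members of each on both sides, and on the right Igkv3 lies at -0.55.

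In several segments the antibody difference had opposite signs in the fractions. Igkv5-48 stood at 7.05, 6.60, 6.30 and 8.93, with the isotype control array of fraction p far above the others. Igkv4-61 stood at 8.92, 9.86, 9.998 and 8.84, with anti-CCL3 p and isotype control m highest. Ighv1-62-2 and Ighv1-71, which share identical values, stood at 4.54, 5.77, 5.42 and 4.93. Their probe sets cannot tell these segments apart. Igkv5-43 was dim throughout, at 5.45, 4.43, 4.26 and 5.22. With 1 array per combination, none of these opposite differences can be tested.

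**Figure D4:**
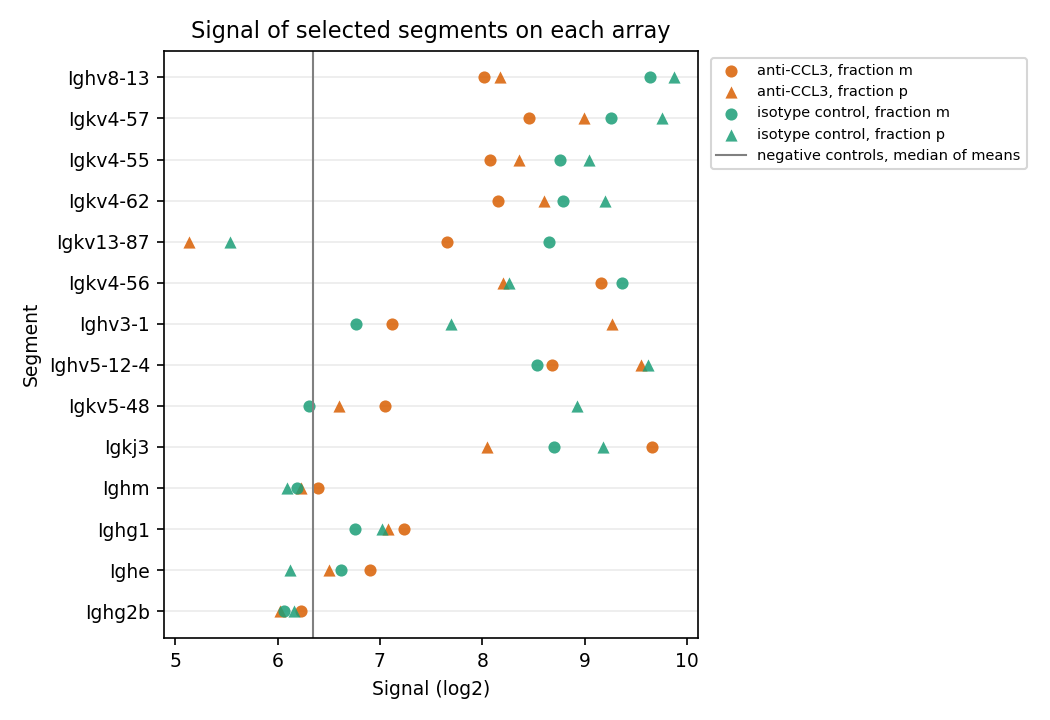
Log2 signal (horizontal) of selected segments on each of the 4 arrays, coloured by antibody and shaped by fraction, with the median of the negative controls (6.34, line). In Ighv8-13 the anti-CCL3 arrays (8.01 and 8.18) lie below the isotype control arrays (9.64 and 9.87), and in Igkv13-87 the arrays of fraction p (5.13 and 5.53) lie below those of fraction m (7.65 and 8.65).

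The second comparison sets fraction p against fraction m. None of the 131 tested segments passed at an adjusted p below 0.05 (limma with Benjamini-Hochberg, background 0.0%), and the smallest adjusted p was 0.396. At an unadjusted p below 0.05 stood 15 (11.5%, against 9.28% of tested genes), of which 5 were higher in fraction p (3.82%, against 1.69%) and 10 lower (7.63%, against 7.59%). The 5 became 10 with quantile normalisation (7.63%, against 3.01% of genes) and 12 with loess (9.16%, against 3.11%). Without the antibody term it was 1 (0.763%, against 1.61%). The 10 lower segments became 8 with quantile normalisation (6.11%, against 4.46%) and 7 without the antibody term (5.34%, against 4.6%). With loess they stayed at 10 (7.63%, against 4.92%). Fits with 1 array left out drop the antibody term, so part of the antibody difference enters them. Their counts are not given here. The median difference of all segments was -0.03, that of all genes -0.02. Under both antibodies 49 segments were higher in fraction p (24.0%, against 23.4%) and 61 lower (29.9%, against 30.6%). These shares were near the background. Beyond 0.5 under both antibodies were 6 higher and 8 lower segments of 204. Of 30142 genes it was 209 (0.693%) and 900 (2.99%). Among tested segments it was 2 and 6 of 131, against 130 and 813 of 15071 genes.

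**Figure D5:**
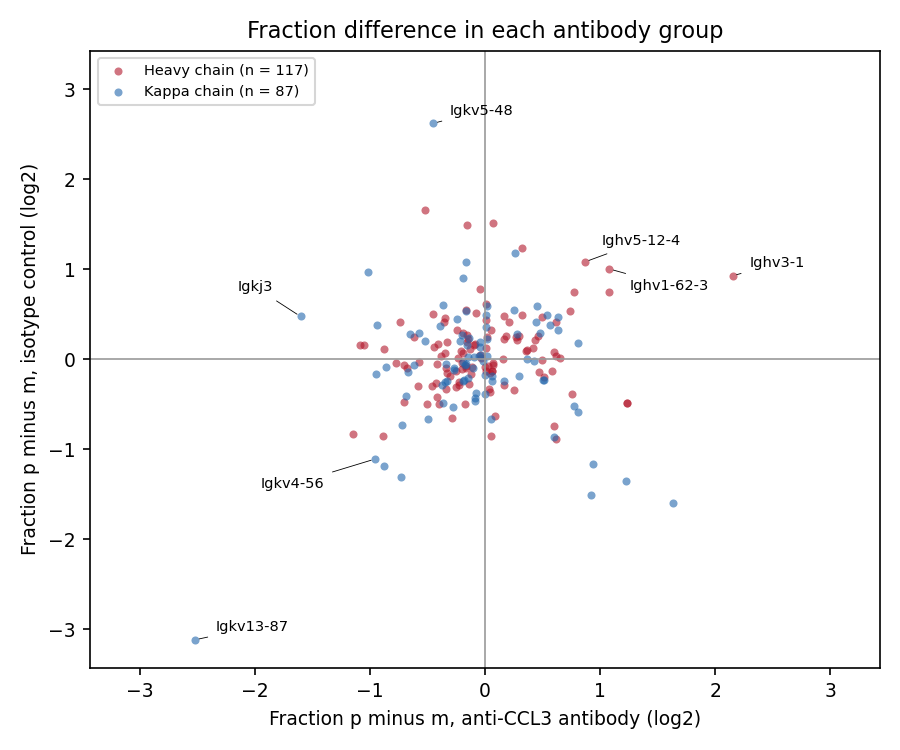
Difference in log2 signal, fraction p minus fraction m, after anti-CCL3 (horizontal) and after isotype control (vertical) for each of 204 segments, by chain. Igkv13-87 lies at -2.52 and -3.12, farther from 0 on both axes than any other segment lower under both antibodies.

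Igkv13-87, a kappa V segment listed as a pseudogene, had the most negative difference between fractions. It stood at 7.65, 5.13, 8.65 and 5.53, so both arrays of fraction p were far below both of fraction m. The fitted difference was -2.82 ± 0.21 (limma, adjusted p = 0.396). Its values in fraction p lie below the level at which testing began, 6.16, and below the median of the negative controls, 6.34. It was tested only through its signal in fraction m, and the size of the difference is against a group not above background. Igkv4-56 stood at 9.16, 8.20, 9.37 and 8.26, and Ighv8-5 at 8.04, 7.15, 8.29 and 7.43. Both also had fraction p lowest under either antibody, with differences of -1.03 ± 0.12 and -0.87 ± 0.11 (adjusted p = 0.431 and 0.439). Igkv3-1 stood at 8.41, 7.67, 8.18 and 6.87, with fraction p again below fraction m and a difference of -1.02 ± 0.21. In its family, Igkv3, 4 of 5 segments were lower in p under both antibodies and the median was -0.55. Igkv6-14, given above, had a fraction difference of -1.03 ± 0.15.

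Ighv3-1 and Ighv5-12-4 were higher in fraction p. Ighv3-1 stood at 7.12, 9.27, 6.76 and 7.69, with a difference of 1.54 ± 0.39 (adjusted p = 0.512), and its anti-CCL3 array of fraction p was the highest of the 4. Ighv5-12-4 stood at 8.68, 9.55, 8.54 and 9.62, so the fractions were apart and the antibody groups close, with a difference of 0.98 ± 0.13 (adjusted p = 0.439). Below the test level, Ighv1-62-3 stood at 5.75, 6.83, 5.19 and 6.20, with fraction p above fraction m under both antibodies. Ighv1-82, Ighv1-72 and Ighv16-1 had fraction differences of 0.91, 0.76 and 0.64.

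Heavy and kappa V segments had similar medians in both comparisons, but their counts were unequal. At an unadjusted p below 0.05, 2 of 64 tested heavy V segments (3.12%) and 9 of 63 kappa V segments (14.3%) were lower after anti-CCL3, against 1.38% of tested genes. Groups did not overlap after anti-CCL3 in 24 heavy V segments that were higher (21.2%, against 18.9% of all genes) and 16 that were lower (14.2%, against 13.0%). In kappa V the counts were 21 (24.4%) and 19 (22.1%). By fraction, groups did not overlap in 9 of the 64 tested heavy V segments, which were higher in fraction p (14.1%, against 12.8% of tested genes), and in 12 that were lower (18.8%, against 24.2%). Among the 63 tested kappa V segments the counts were 4 (6.35%) and 13 (20.6%). Over all members they were 23 higher (20.4%) and 19 lower (16.8%) for heavy V, and 7 (8.14%) and 18 (20.9%) for kappa V. Of all genes, 15.96% were higher and 20.62% lower in this way, so the kappa V share of lower segments was near the background. Beyond 0.5 under both antibodies stood 6 higher and 3 lower of 113 heavy V segments, and 0 and 5 of 86 kappa V segments. Of 30142 genes it was 209 (0.693%) and 900 (2.99%). Among tested segments the counts were 2 and 1 of 64 heavy V and 0 and 5 of 63 kappa V, against 130 and 813 of 15071 genes. By fraction, the median difference was -0.01 for heavy V and -0.05 for kappa V. The range over arrays exceeded 1 in 18.6% of heavy V and 25.6% of kappa V segments. No test of heavy against kappa was made.

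Lambda chains could be read only through a probe set annotated with 9 lambda symbols together. It stood at 6.87, 6.89, 6.79 and 6.64, with anti-CCL3 highest in both fractions and a mean antibody difference of 0.16. A probe set annotated with 14 kappa V, J and constant symbols stood at 7.31, 7.02, 6.96 and 6.91, with both anti-CCL3 arrays highest and a difference of 0.23. The corresponding heavy chain probe set, with 8 symbols, stood at 6.32, 6.26, 6.24 and 6.31, and its groups overlapped. These shared probe sets were not tested.

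Genes that B cells need to build and display antibodies did not pass either test, and nor did any other tested gene (background 0.0%). Of 17 B cell markers, 10 were tested and 0 passed for antibody or fraction (limma, adjusted p below 0.05), with 0 at an unadjusted p below 0.05 in either. Of all tested genes, 7.84% (antibody) and 9.28% (fraction) had an unadjusted p below 0.05, so counts of 0 in lists this short are no distinction. The B cell markers had a median antibody difference of 0.02 and a median fraction difference of -0.10, against 0.02 and -0.02 for all genes. Under both antibodies 10 of the 17 were lower in fraction p (58.8%, against 30.6% of all genes) and 2 higher (11.8%, against 23.4%). Their summed log2 level was 106.6, 105.1, 106.3 and 104.9. Of 12 plasma cell genes 3 were tested and 0 passed, with 0 at an unadjusted p below 0.05. Jchain, which joins IgM and IgA units, stood at 6.39, 6.78, 6.51 and 6.54. The recombination and class switching genes were dim, with a median of 5.76 over 9 genes, 3 of them tested, and Lig4, a DNA ligase, highest at 6.45. The surrogate light chain gene Vpreb1, made in precursor B cells, stood at 7.07, 7.55, 7.29 and 7.80. Its difference after anti-CCL3 was -0.24, and fraction p was above fraction m by 0.50. Of the 6 genes of its list 5 were tested and 0 passed (limma). Vpreb1 was the 1 gene of them at an unadjusted p below 0.05, for fraction (20.0%, against 9.28% of tested genes). Among 12 immunoglobulin receptors, 6 of them tested and 0 at an unadjusted p below 0.05 (limma), the neonatal Fc receptor gene Fcgrt was highest at 6.81. The IgG receptor gene Fcgr4 stood at 6.41, 6.40, 7.06 and 6.22, with isotype control m above the rest. The part of B cells or plasma cells in the segment signals was not tested.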

How the data were processed

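Per the labels' protocols, total RNA was amplified and biotin-labelled with the GeneChip WT Pico reagents. The authors deposited log2 signals for each probe set. The submitters' processing notes name RMA and Affymetrix Expression Console, without versions or options. The log2 scale was taken from RMA's usual output and the range of the values.

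Of 72688 probe sets, 65956 were transcript clusters, 30604 with 1 symbol, 2146 with several and 33206 with none listed. Symbols were updated by gene number for 827 clusters through RefSeq's list of genes. The annotation's gene numbers for Ighe and Ighg2b differ from RefSeq's numbers for these symbols, so their identity is less sure. The brightest probe set per symbol gave 30142 genes, and the 15071 with a mean at or above the median, 6.16, were tested. The model, with antibody and fraction together, was run in limma 3.58.1 (R 4.3.3, reading files with the package data.table, version 1.17.8), and it pairs the arrays of a fraction. This left 1 residual degree of freedom, and the prior added 1.69. Adjustment was by Benjamini-Hochberg at 0.05. The scripts were tested on simulated data. Differences within a fraction or antibody compare 1 array with 1 array and have no test.

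Members and lists were chosen with earlier results of these data known. Named segments were, for each comparison and direction, the 6 whose smaller paired difference was largest, both being in that direction, the 6 with the most opposite antibody differences, the 5 brightest and 3 dimmest, all constant and J segments, and 5 segments named earlier. For other lists the highest and lowest genes and defining members were used. The alternatives were other scalings, filters, probe set rules and gene sets, no fraction term, and leaving out each array. T cell and neutrophil lists were also read, with 7 and 6 genes tested and 0 passing (limma). At an unadjusted p below 0.05 stood 1 T cell gene, Cd3d, for fraction (14.3%), and 1 neutrophil gene, Cxcr2, in both comparisons (16.7%). Of all tested genes it was 7.84% for antibody and 9.28% for fraction. Of the octamer factors only Pou2af1 had a probe set of its own, below the test level.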

Additional observations from a re-analysis of the deposited data

Results flagged for a closer look

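In 13 of the named segments the antibody differences were of opposite sign in fractions m and p, and 6 of them had been named for that. Such opposite signs were found in 41.7% of all segments and 48.4% of all genes, so they are no distinction. Each compares 1 array with 1 array, and the difference between them was not tested. The antibody difference in fraction p minus that in fraction m was -3.07 for Igkv5-48, -2.08 for Igkj3 and -1.98 for Igkv5-43. It was 2.10 for Igkv4-61 and 1.72 for both Ighv1-62-2 and Ighv1-71, which share their values. Ighv2-5, among the brightest segments, was at -1.25. The remaining gaps were small, at 0.36 for Ighv1-12, -0.30 for Ighg2b, -0.25 for Ighv6-3, -0.21 for Ighv5-12-4, and 0.20 for Ighv1-64 and Ighv16-1.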

How the results depend on the processing

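No segment passed an adjusted p below 0.05 under any of the alternatives run, in either comparison. The median antibody difference of the segments, 0.00, was -0.057 after quantile normalisation and ran from 0.0094 to 0.062 with 1 array left out. The median fraction difference, -0.03, was 0.053 after quantile normalisation and 0.039 after loess, and ran from -0.08 to -0.00 with 1 array left out. Without the fraction or antibody term (no replicate block), which unpairs the arrays, the medians over tested segments were 0.02 and -0.06, and no segment passed. With no filter on dim genes, 204 segments were tested. At an unadjusted p below 0.05 (limma), 13 were higher after anti-CCL3 (6.37%, against 4.83% of genes) and 16 lower (7.84%, against 1.82%). By fraction, 16 were higher in p (7.84%, against 2.32%) and 17 lower (8.33%, against 5.6%). With the stricter filter, 106 segments were tested. For antibody 1 was higher (0.943%, against 8.81%) and 7 lower (6.6%, against 1.05%). For fraction 3 were higher (2.83%, against 1.27%) and 7 lower (6.6%, against 10.2%).

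Of the named segments, the antibody difference of Ighv5-12-4 turned to -0.29 with quantile normalisation and -0.24 with loess, and that of Ighg2b to -0.012 with quantile normalisation, -0.011 with centring and -0.0006 with loess. Bright segments turned most: with quantile normalisation and loess the antibody difference of Ighv12-3 went from 0.23 to -0.43 and -0.27, that of Ighv2-5 from 0.50 to -0.30 and -0.02, and that of Ighv6-3 from 0.00 to -0.59 and -0.48 (-0.02 with centring). Fraction differences under these scalings turned from -0.44 to 0.38 and 0.14 for Ighv10-1, -0.25 to 0.36 and 0.28 for Ighv12-3, -0.46 to 0.29 and 0.09 for Ighv2-5, -0.22 to 0.38 and 0.29 for Ighv6-3, -0.20 to 0.52 and 0.35 for Igkv4-70, and -0.11 to 0.15 and 0.22 for Igkv4-61. With loess that of Ighv1-22 turned from 0.02 to -0.0027. With 1 array left out, antibody differences ran from -0.11 to 2.04 for Ighv3-1, -0.50 to 0.58 for Ighv5-12-4, -2.26 to 0.86 for Igkv13-87, -0.61 to 0.55 for Igkv4-61 and -0.89 to 0.71 for Igkj3. They ran from -0.63 to 0.60 for Ighv1-71 and Ighv1-62-2, -0.31 to 0.71 for Igkv5-43, -2.10 to 0.52 for Igkv5-48 and -0.094 to 0.11 for Ighg2b. Fraction differences ran from -0.65 to 1.04 for Ighv8-13, -1.13 to 0.001 for Igkj3, -0.19 to 0.30 for Ighg1 and -0.14 to 0.024 for Ighg2b. The causes were not tested. With 3 arrays the other factor leaves the fit and the arrays are no longer paired. Part of the other factor's difference then enters the estimate, so these ranges do not show the spread of the paired difference alone. The lone array of a group is assumed to vary like the other group. All segments lie within the signal range of the negative controls, which limits every comparison.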

Other observations

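Among 25 probe sets annotated with several symbols that include an immunoglobulin symbol, which were left out of the tests, 1 stood apart from the rest. It carries 2 symbols and was chosen after its values were seen. Its signal was 10.41, 10.67, 10.98 and 13.24 in anti-CCL3 m, anti-CCL3 p, isotype control m and isotype control p. The last of these arrays was far above the others, and the antibody differences were -0.58 in m and -2.57 in p.

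Near the level at which testing began, Igkv4-53 (6.22) and Ighm (6.22) lay just inside and Igkv4-81 (6.15) and Ighg2b (6.12) just outside.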
